A study of Mus musculus with 11 samples.

Results

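Igf1, Igf1r and the IGF-binding protein genes Igfbp2, Igfbp3, Igfbp4, Igfbp5, Igfbp6 and Igfbp7 were followed across the mesenchymal cells of mouse liver. The genes were taken by symbol, and all 8 were found among the 27998 genes of the 10X tables and among the 23998 genes of the Smart-seq2 plates. The cells came from Pdgfrb-GFP reporter mice, in which PDGFRβ-expressing mesenchymal cells carry GFP, and were sorted as GFP-positive cells without the leucocyte marker CD45 or the endothelial marker CD102. Because every cell was chosen by this reporter, a cell that had lost it would not have been collected.

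Each of the 5 10X Chromium libraries pooled 3 mice. A pair of libraries came from uninjured mice, 1 made with digestion protocol 1 (labelled PF) and 1 with protocol 2 (labelled HSC), and a pair came from mice given CCl4, a hepatotoxin that kills pericentral hepatocytes, for 6 weeks, again with each protocol. The last library was made with protocol 2, 72 h after CCl4. Of the 6 Smart-seq2 plates, 3 held cells of uninjured mice and of mice 14 days after bile duct ligation (BDL), 2 held cells of uninjured mice and of mice given CCl4 for 6 weeks, and 1 held cells of uninjured mice only. All plate cells were from protocol 1 except those of 2 uninjured mice on plate 6, which were from protocol 2. Wells of 1 mouse on 1 plate, as the plate layouts gave them, are called a portion. The labels do not say whether portions of the same name on different plates, injured or uninjured, came from the same animal. The spread between portions may therefore be partly technical.

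IGF1 is a secreted growth factor made mostly by hepatocytes under growth hormone, and it acts through the receptor tyrosine kinase encoded by Igf1r. The IGF-binding proteins carry IGFs in blood and tissue, lengthen their life and hold them from or release them to the receptor. Igfbp3 encodes the main carrier in serum, which is made in the liver by non-parenchymal cells, and Igfbp7 encodes a distant relative with low affinity for IGFs. Proteases such as PAPP-A, encoded by Pappa, cut some of the binding proteins and free the growth factor.

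After filters, the libraries held 5454 to 7310 cells, 25962957 to 86661230 UMIs in total and a median of 4299 to 11343.5 UMIs per cell, deepest at 72 h. Clusters made without the genes followed here were given names from fixed markers of hepatic stellate cells (HSCs), fibroblasts (FBs) and vascular smooth muscle cells (VSMCs), and are written HSC-like, FB-like and VSMC-like. Protocol 2 gave 6850, 7123 and 5425 HSC-like cells (uninjured, 72 h, 6 weeks), and protocol 1 gave 4069 and 2646 FB-like and 1664 and 2994 VSMC-like cells (uninjured, 6 weeks). A cluster of 171 cells at 72 h, led by Saa3 and Lcn2, had no name. The plates kept 927 of 1020 wells from 8 uninjured portions, 656 of 762 from 5 BDL portions and 482 of 510 from 4 CCl4 portions, with a median of 388893 to 484283.5 reads per well. Libraries shared 33 to 74 cell barcodes in pairs, and doublet calls took 4.36% to 5.84% of cells. Levels are UMIs per 1000000 UMIs of the class (CPM) in 10X, with exact 95% Poisson intervals that cover counting error only. On the plates they are reads per 1000000 reads of the class in a portion (RPM), not corrected for length. Since each condition and protocol had 1 library, the 10X conditions were not tested, and folds there were called past 2-fold among genes of at least 5 CPM on either side. Neither assay separates fewer cells making a transcript from less transcript in each cell once sums are compared.

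The 8 genes lie on 6 chromosomes on GRCm38 (GENCODE annotation). Igfbp2 (chr1:72824503-72852474, plus strand) and Igfbp5 (chr1:72857932-72874884, minus strand) face each other 5457 bp apart, and Igfbp3 (chr11:7206086-7213923, minus strand) ends 3539 bp from Igfbp1. The others are Igf1 (chr10:87858265-87937042, plus), Igf1r (chr7:67952827-68233668, plus), Igfbp4 (chr11:99041244-99054392, plus), Igfbp6 (chr15:102144362-102149511, plus) and Igfbp7 (chr5:77349240-77408041, minus). The 250 bases before the RefSeq start (GRCm38.p6), for Igfbp2 the first of 2 starts, are printed for the neighbours Igfbp2 and Igfbp5, the members with the highest BDL portions relative to uninjured ones in FB-like wells, as described further on. Capitals mark GGGCGG, the GC box, on the strand of the gene. The reverse complement CCGCCC and the TATA box letters TATAAA (reverse complement TTTATA) were searched as well.
Igfbp2, chr1:72824230-72824479, plus strand: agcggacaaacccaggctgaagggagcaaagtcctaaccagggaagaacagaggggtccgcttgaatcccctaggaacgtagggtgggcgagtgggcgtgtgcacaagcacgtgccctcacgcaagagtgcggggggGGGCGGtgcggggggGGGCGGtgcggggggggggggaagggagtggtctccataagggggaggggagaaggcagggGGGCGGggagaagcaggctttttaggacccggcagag
Igfbp5, chr1:72874866-72875115, minus strand: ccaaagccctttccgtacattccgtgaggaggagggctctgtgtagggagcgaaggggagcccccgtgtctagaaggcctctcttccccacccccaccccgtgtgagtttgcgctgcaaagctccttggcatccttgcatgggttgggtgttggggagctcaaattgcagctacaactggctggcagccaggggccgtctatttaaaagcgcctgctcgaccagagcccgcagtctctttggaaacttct
The Igfbp2 window held 3 GC boxes and the Igfbp5 window none, and neither held the TATA box letters. The window of the second Igfbp2 start (chr1:72825137-72825386) held neither motif. Of 32851 RefSeq promoter windows of this length, 32.7% held a GC box on either strand and 12.4% the TATA box letters. These matches are descriptions of letters and were not tied to any expression value.

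In HSC-like cells, Igf1 was higher after CCl4 at both times, and Igfbp3 was lower at 72 h and higher at 6 weeks than in uninjured cells. Igfbp7 was by far the most abundant of the 8 transcripts in every library, and Igfbp5 and Igfbp6 were nearly absent. Igf1 measured 5.43 CPM (4.78 to 6.15) in uninjured HSC-like cells, 45.6 CPM (44.2 to 47.1) at 72 h and 33.9 CPM (32.3 to 35.5) at 6 weeks. The level was thus 8.39-fold (7.39 to 9.57) higher at 72 h and 6.23-fold (5.46 to 7.14) higher at 6 weeks, and the 6-week level was 0.743-fold (0.702 to 0.786) that at 72 h. Cells with an Igf1 UMI made up 3.12%, 28.8% and 15% in the same order, and after thinning each cell to 2000 UMIs 1.13%, 7.10% and 5.18%, so the order of the conditions held at equal depth. FBs carry far more Igf1, and Igfbp6, which exceeded Igf1 in FB-like cells, was 1.06 CPM in HSC-like cells at 72 h and 1.47 CPM at 6 weeks. Of 5 mesothelial markers, Wt1 measured 1.10, 33.5 and 38.1 CPM in HSC-like cells. The other 4 were at 0 after genes detected in fewer than 3 cells of a library had been set to 0. The part of FB or mesothelial RNA in the Igf1 level was not tested.

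Igfbp3, the serum carrier, measured 873 CPM (865 to 882) in uninjured HSC-like cells, 249.9 CPM (246.5 to 253.3) at 72 h and 1304 CPM (1295 to 1314) at 6 weeks. It was 0.286-fold (0.281 to 0.291) the uninjured level at 72 h and 1.49-fold at 6 weeks, a 5.22-fold (5.14 to 5.30) gap between the acute and the chronic library. The share of cells with a UMI followed the same order, at 83.3%, 71.1% and 96.0%, or 62.1%, 32.8% and 78.6% after thinning. Igfbp7 measured 12457, 11305 and 18360 CPM, and every HSC-like cell held at least 1 UMI of it. Its 6-week level was 1.47-fold the uninjured and 1.62-fold the 72 h level. Igfbp4, a binding protein known mostly as an inhibitor of IGF action, was 314, 264 and 379 CPM, and the receptor gene Igf1r 57.2, 46.8 and 48.9 CPM. Both stayed within 2-fold of the uninjured level, at 0.840 and 1.21 for Igfbp4 and 0.819 and 0.856 for Igf1r.

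At 72 h, 1 of the 5 members of at least 5 CPM was past 2-fold higher (Igf1) and 1 past 2-fold lower (Igfbp3), beside 7.76% and 9.43% of 9954 genes. At 6 weeks only Igf1 of the 5 was past 2-fold higher, beside 3.18% of 9683 genes, and none was past 2-fold lower, beside 1.76%. Between the libraries at 6 weeks and 72 h, Igfbp3 alone of 5 was past 2-fold higher, beside 4.25% of 9785 genes, and none lower, beside 5.25%. The median log2 fold over all genes was -0.21 at 72 h and -0.22 at 6 weeks. Size factors that reduced this shift to -0.067 and -0.047 gave Igfbp7 1.00-fold at 72 h and 1.66-fold at 6 weeks. The remaining members were at or under the 5 CPM floor. Igfbp2 had 9, 62 and 17 UMIs, Igfbp6 1, 89 and 76 UMIs, and Igfbp5 0, 11 and 26 UMIs. The Igfbp6 level was 49.2-fold (8.61 to 1966) the uninjured one at 72 h. For Igfbp5, 0 of 6850 uninjured cells had a UMI, which allows a share of cells with a UMI of up to 0.0438% and sets no limit on cells expressing the gene, and the 6-week level was at least 7.77-fold higher against a floor of 3 counts in that library. The conditions also occupied different clusters. Uninjured cells were mostly in the clusters led by Fcna and Ecm1 (3196 cells), Adap2os (1804) and Cxcl10 (1563), those at 72 h in the Plagl1, Slc39a1, dividing and Alpl clusters (3025, 1591, 1359 and 1079), and those at 6 weeks in the Alcam (3429) and Clec4g (1488) clusters.

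Of the 20 further genes of the axis, 12 reached 5 CPM in HSC-like cells in the comparisons with uninjured cells. At 72 h, Irs1, an adaptor of the insulin and IGF receptors, was the 1 gene past 2-fold, at 0.485-fold (7.11 to 3.45 CPM), and at 6 weeks none was. Ghr, the growth hormone receptor, stayed at 57.9, 57.9 and 65.9 CPM and Insr, the insulin receptor, at 18.3, 11.1 and 14.7 CPM. Socs2, a growth hormone-induced feedback inhibitor, measured 102.0, 149.7 and 92.5 CPM, and Igf2, the other ligand, was near 1 CPM in each library. The median log2 fold of the list was 0.02 at 72 h and -0.15 at 6 weeks, and that of the 5 members -0.25 and 0.56.

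**Figure D1:**
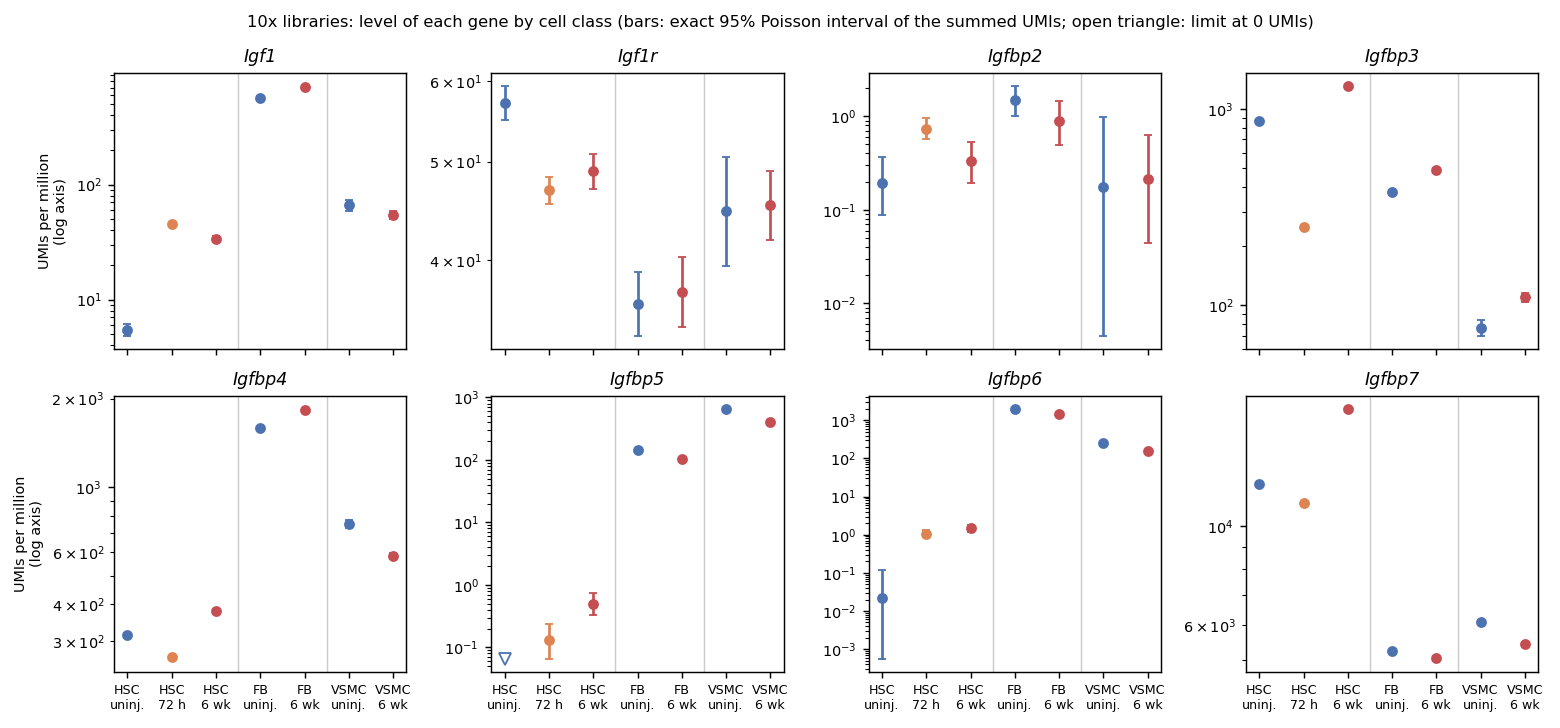
Level of each of the 8 genes in CPM (log axis) by class and 10X library, with exact 95% Poisson intervals for counting error and an open triangle at the limit where a count was 0. Igf1 in HSC-like cells is at 5.43 CPM uninjured and at 45.6 and 33.9 CPM after CCl4, Igfbp3 there is lowest at 72 h, and Igfbp6 and Igf1 stand highest in FB-like cells.

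HSC-like cells were divided in each library into portal and central cells of the lobule by a score made here from the 52 portal and 29 central genes of the study's zonation signature. A measured gene never entered its own score. The study obtained its portal (PaHSC) and central (CaHSC) cells from the same genes by clustering, so the division here need not match. Igf1 was a central gene in all 3 libraries, and Igfbp3 was portal in uninjured and 6-week cells but central at 72 h. Igfbp3 is 1 of the study's portal genes, which were chosen on these uninjured cells, so its direction there is no independent evidence. The score gave 2988 portal and 3862 central uninjured cells, 1656 and 5467 at 72 h and 1698 and 3727 at 6 weeks, of which 736, 380 and 439 lay near the dividing value.

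Igf1 measured 3.27 CPM in portal and 7.14 CPM in central cells of uninjured liver, 12.2 and 54.0 CPM at 72 h, and 5.91 and 46.1 CPM at 6 weeks. The portal level was 0.459-fold (0.341 to 0.610) the central one in uninjured cells, 0.226-fold at 72 h and 0.128-fold at 6 weeks. In quintiles of the score from central to portal, uninjured cells had 9.40, 6.43, 5.24, 4.02 and 2.32 CPM, lower at each step. Scores and quintiles were made within each library, so the same quintile of different libraries need not hold the same zone of the lobule. At 6 weeks the quintiles measured 50.4, 58.0, 39.6, 15.8 and 3.87 CPM. At 72 h the first 4 quintiles lay between 50.01 and 58.2 CPM and the most portal quintile at 5.85 CPM, so the difference lay at a single step.

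Igfbp3 measured 1260 CPM in portal and 572 CPM in central uninjured cells, 128 and 281 CPM at 72 h, and 1734 and 1113 CPM at 6 weeks. The portal-to-central ratio was 2.20, then 0.457, then 1.56. By quintiles the uninjured level ran from 415 CPM at the central end through 544, 790 and 1004 to 1597 CPM, while the 72 h level ran from 303 down to 122 CPM. At 6 weeks it ran from 983 up to 1820 CPM. Igfbp4 was higher in central than in portal cells of each library, with portal-to-central ratios of 0.715, 0.767 and 0.413, and at 6 weeks its quintiles measured 491, 543, 437, 236 and 179 CPM. Igfbp7 was even across the lobule in uninjured cells (ratio 0.979) and at 72 h (0.963), and at 6 weeks 15064 CPM in portal against 19801 CPM in central cells. Igf1r did not differ beyond 1.11-fold between the zones in any library.

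Htra1, a secreted protease that can cut IGF-binding proteins and another of the study's portal genes, was portal by 7.53-fold in uninjured cells and by 3.33-fold at 72 h, and at 6 weeks the ratio was 0.709. Thinning cells to 2000 UMIs brought the portal-to-central ratio of Igf1 to 0.514 in uninjured cells, 0.362 at 72 h and 0.240 at 6 weeks. It brought the ratio of Igfbp3 at 72 h to 0.592 and that of Igfbp4 at 6 weeks to 0.506, both inside 2-fold. These ratios are descriptions within single libraries.

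**Figure D2:**
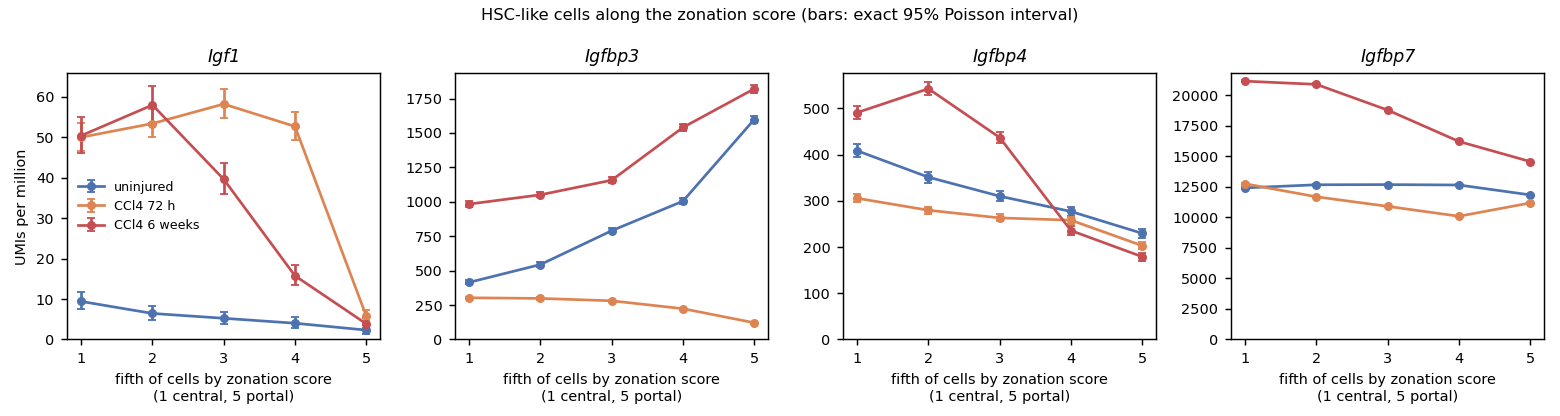
Level in CPM of Igf1, Igfbp3, Igfbp4 and Igfbp7 in quintiles of the zonation score, from the central to the portal end, in HSC-like cells of the 3 protocol 2 libraries, with exact 95% Poisson intervals. Igfbp3 is higher toward the portal end in uninjured and 6-week cells and lower there at 72 h, while Igf1 after injury is at 5.85 CPM (72 h) and 3.87 CPM (6 weeks) in the most portal quintile.

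Cells were also divided by a score made here from Col1a1, Col1a2 and Col3a1, the fibrillar collagens of scar, which the study used to mark myofibroblasts. A cell without a UMI of any 1 of them got the lowest score. The division here need not match the study's myofibroblasts. Igf1 was higher in collagen-high cells of every library, while Igf1r had ratios of 0.945 (0.875 to 1.02) in uninjured cells, 1.35 (1.11 to 1.64) at 72 h and 0.922 (0.836 to 1.02) at 6 weeks. Collagen-high HSC-like cells numbered 3148 of 6850 in uninjured liver, 6745 of 7123 at 72 h and 4250 of 5425 at 6 weeks, with 306, 90 and 214 cells near the dividing value. Igf1 measured 8.55 CPM in collagen-high and 2.51 CPM in collagen-low uninjured cells, 47.2 and 4.16 CPM at 72 h, and 40.4 and 5.40 CPM at 6 weeks. Those are ratios of 3.41, 11.4 and 7.48. With cells thinned to 2000 UMIs and the division made anew, the ratios were 2.86, 5.96 and 4.62, with 12.1 and 4.24 CPM, 49.96 and 8.39 CPM, and 61.9 and 13.4 CPM in collagen-high and collagen-low cells. Collagen-high cells then numbered 1194, 5334 and 2174. Igfbp4 was 418 CPM in collagen-high and 211 CPM in collagen-low cells at 6 weeks, and Igfbp7 19007 and 15531 CPM. Igfbp3 ran the other way at 6 weeks, with 1269 CPM in collagen-high and 1459 CPM in collagen-low cells, and was 255 and 115 CPM at 72 h. The ratio of 2.22 for Igfbp3 at 72 h came to 1.85 after thinning.

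Single clusters followed the same lines. Igf1 measured 49.4 CPM in the 3429 cells of the Alcam and Spidr cluster at 6 weeks and 47.5 CPM in the 91 uninjured cells that fell in it. The Clec4g cluster had 4.42 CPM in its 1488 cells at 6 weeks and 3.47 CPM in its 126 uninjured cells. The few uninjured cells in these clusters were placed there by an expression profile like that of 6-week cells. Likeness of the conditions within a cluster was thus partly set by the clustering, and the part of condition was not tested. Igfbp3 was 1746 and 1558 CPM in the Clec4g cluster at the same times. At 72 h, Igf1 stood at 54.3 CPM in the Plagl1 cluster, 56.5 CPM in the Slc39a1 cluster and 46.8 CPM in the dividing cells led by Ube2c, against 3.94 CPM in the Alpl and Mest cluster.

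Between the portal mesenchymal classes, FB-like cells carried the higher level of Igf1, Igfbp3, Igfbp4 and Igfbp6 and VSMC-like cells the higher level of Igfbp5, in both assays. Igfbp7 and Igf1r were close in both. The VSMC-like cells of 10X came from the same libraries as the FB-like cells and the HSC-like cells from others, and the part of free RNA in their levels of Igf1 and Igfbp6 was not tested. In the uninjured 10X library, Igf1 stood at 566 CPM for the FB-like and at 65.9 CPM for the VSMC-like class (8.60-fold, 7.76 to 9.55), with a UMI in 74.6% and 8.77% of cells. Igfbp6, which prefers IGF2 as its ligand, was 2026 and 251 CPM (8.06-fold), and Igfbp5, a binding protein of muscle and bone, 144 and 645 CPM (0.223-fold, 0.213 to 0.234). Igfbp3 was 377 and 76.4 CPM and Igfbp4 1590 and 751 CPM, folds of 4.94 and 2.12. These 4 higher and 1 lower of 7 members stood beside 17.8% and 10.8% of 10492 genes.

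After 6 weeks of CCl4 the same 5 genes were past 2-fold in the same directions, at 13.1-fold for Igf1, 9.28-fold for Igfbp6, 4.43-fold for Igfbp3, 3.13-fold for Igfbp4 and 0.254-fold for Igfbp5, beside 15.6% of 10628 genes higher and 11.3% lower. Called doublets touched this contrast. Without them the Igf1 fold was 32.5 in uninjured and 27.4 in 6-week cells and the Igfbp6 fold 17.3 and 14.2. On the plates, where VSMC-like wells held Igfbp6 at 0.296 to 1.57 RPM, the gap was wider still.

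In uninjured wells, Igf1 measured 548, 304, 1194, 699, 1139 and 588 RPM in the FB-like wells of plates 1 to 6 and 0.168, 1.85, 14.1, 6.84, 17.4 and 0.397 RPM in the VSMC-like wells of the same portions. Every FB-like value lay above every VSMC-like value. With the portion as a term, edgeR's quasi-likelihood test gave a log2 fold change of 7.86 (SE 0.89) and a Benjamini-Hochberg adjusted p of 0.00054. Igfbp6 differed by 9.99 (SE 0.61, adjusted p 3.3e-05), Igfbp3 by 6.35 (SE 1.39, adjusted p 0.015) and Igfbp4 by 1.46 (SE 0.26, adjusted p 0.0050). Igfbp5 was lower in FB-like wells by -4.66 (SE 0.55, adjusted p 0.00065), with 4.81 to 58.7 RPM against 803 to 1469 RPM on plates 1 to 5. Igfbp7 (0.43, SE 0.15, adjusted p 0.11) and Igf1r (-0.58, SE 0.37, adjusted p 0.38) did not pass, and Igfbp2 was too low to test. The 4 called higher of 7 stood beside 8.24% of 11784 genes and the 1 called lower beside 7.98%. The Igfbp3 call rested on plate 4, without whose portion the adjusted p was 0.053. A coarser clustering, at resolution 0.3, put the C7 and Wif1 wells in a cluster of 520 wells without a class name. Only the uninjured portions of plates 3 and 5, with 13 and 15 FB-like wells, then reached the minimum of 10. In that smaller fit, without the C7 wells, Igfbp3 (adjusted p 0.72) and Igfbp4 (adjusted p 0.16) were not called.

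Of the list of 20 axis genes, 16 could be tested in this contrast. Higher in FB-like wells were the protease genes Pappa (log2 2.04, adjusted p 0.018) and Htra1 (1.85, adjusted p 0.00025), Stc2, whose product stanniocalcin inhibits PAPP-A (1.87, adjusted p 0.031), and Ghr (1.29, adjusted p 0.029). Lower were Insr (-0.84, adjusted p 0.025) and Grb14, an adaptor that restrains the insulin receptor (-4.92, adjusted p 0.021), and the other 10 did not pass. The 10X cells gave 469 against 175 CPM for Htra1, 19.3 against 5.94 CPM for Pappa and 7.81 against 81.2 CPM for Grb14 in uninjured FB-like and VSMC-like cells. The median log2 fold change was 0.36 over the list, 1.46 over the 7 members and -0.16 over all genes.

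HSC-like wells were sequenced only from the uninjured portions 2 and 3 of plate 6, with 154 and 158 wells. They held Igfbp7 at 6121 and 7429 RPM, Igfbp3 at 811 and 1050 RPM, Igfbp4 at 444 and 380 RPM and Igf1r at 77.2 and 64.3 RPM. Igf1 was 0.972 and 10.5 RPM, Igfbp6 0.0736 and 0.0817 RPM and Igfbp5 0.663 and 0.0136 RPM, so the genes that were nearly absent from 10X HSC-like cells were nearly absent here too. The order of classes for each gene in uninjured cells was FB-like, VSMC-like, HSC-like for Igf1 in 10X, while on the plates the ranges of VSMC-like and HSC-like wells overlapped. Igfbp6 had that order in 10X, and Igfbp5 ran from VSMC-like through FB-like to HSC-like cells in both assays. Igfbp3 was highest in HSC-like cells in 10X, while on the plates the HSC-like range lay inside that of FB-like wells, 680 to 4530 RPM over 6 portions.

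Taking the UMIs of the 6 binding proteins together, where each UMI tags 1 transcript end whatever its length, Igfbp7 made up 91.3%, 95.6% and 91.6% of them in HSC-like cells. In FB-like cells its share was 55.9% in uninjured and 56.4% in 6-week cells, with Igfbp6 at 21.6% and 16.5% and Igfbp4 at 17.0% and 20.4%. VSMC-like cells had 77.9% and 81.1% from Igfbp7, 9.61% and 8.74% from Igfbp4 and 8.26% and 6.12% from Igfbp5. The summed level was 13644, 11820 and 20046 CPM in HSC-like cells, 9378 and 8958 CPM in FB-like cells and 7813 and 6683 CPM in VSMC-like cells.

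In 10X FB-like and VSMC-like cells, 6 weeks of CCl4 moved no member past 2-fold. In FB-like cells Igf1 went from 566 to 712 CPM (1.26-fold, 1.23 to 1.29), Igfbp3 from 377 to 487 CPM (1.29-fold), Igfbp6 from 2026 to 1480 CPM (0.730-fold) and Igfbp5 from 144 to 104 CPM (0.721-fold). None of 7 members was past 2-fold beside 2.40% of 10256 genes. In VSMC-like cells Igfbp5 went from 645 to 409 CPM (0.634-fold, 0.608 to 0.661), Igfbp6 from 251 to 159 CPM and Igfbp4 from 751 to 584 CPM, again 0 of 7 beside 3.60% of 9970 genes. Igf1 in VSMC-like cells was 0.826-fold the uninjured level, and 1.49-fold without called doublets, so its direction depended on them. The Igfbp6 folds between the classes moved with called doublets as well, as given above. The Igfbp6 values of VSMC-like cells carry that limit. Among the axis list, Igf2 was lower past 2-fold in both classes (8.90 to 3.83 CPM and 9.79 to 3.77 CPM), and Irs2 and Stc1 were higher in VSMC-like cells.

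The FB-like cells formed a cluster led by Sfrp1 and Fmo2 and one led by Pi16 and Thbs4, with 1822 and 2247 uninjured cells and 1744 and 902 at 6 weeks. Igfbp3 was 824 CPM in the first and 69.2 CPM in the second in uninjured liver, and 691 and 138 CPM at 6 weeks. Igfbp6 lay the other way round, at 969 and 2756 CPM and then 1036 and 2237 CPM, as did Igfbp5 at 82.5 and 186 CPM. Igf1 was alike in both, at 549 and 578 CPM and then 718 and 701 CPM. The Pi16 cluster held fewer of the FB-like cells at 6 weeks, and its part in the class levels was not tested. In VSMC-like cells, the Higd1b and Ephx3 cluster (599 and 1934 cells) had Igfbp5 at 982 and 437 CPM and the Pln and Tcap cluster (914 and 853 cells) at 542 and 381 CPM. The small Tnnt2 and Npnt cluster (151 and 207 cells) carried Igf1 at 320 and 276 CPM and Igfbp6 at 905 and 555 CPM. Its median over all libraries was 6935 UMIs per cell, against 3785 in the Higd1b and 3513 in the Pln cluster. The uninjured plate wells led by Actc1 and Npnt held Igf1 at 51.9 RPM and Igfbp6 at only 1.25 RPM. The part of doublets or FB RNA in the levels of this 10X cluster was not tested.

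**Figure D3:**
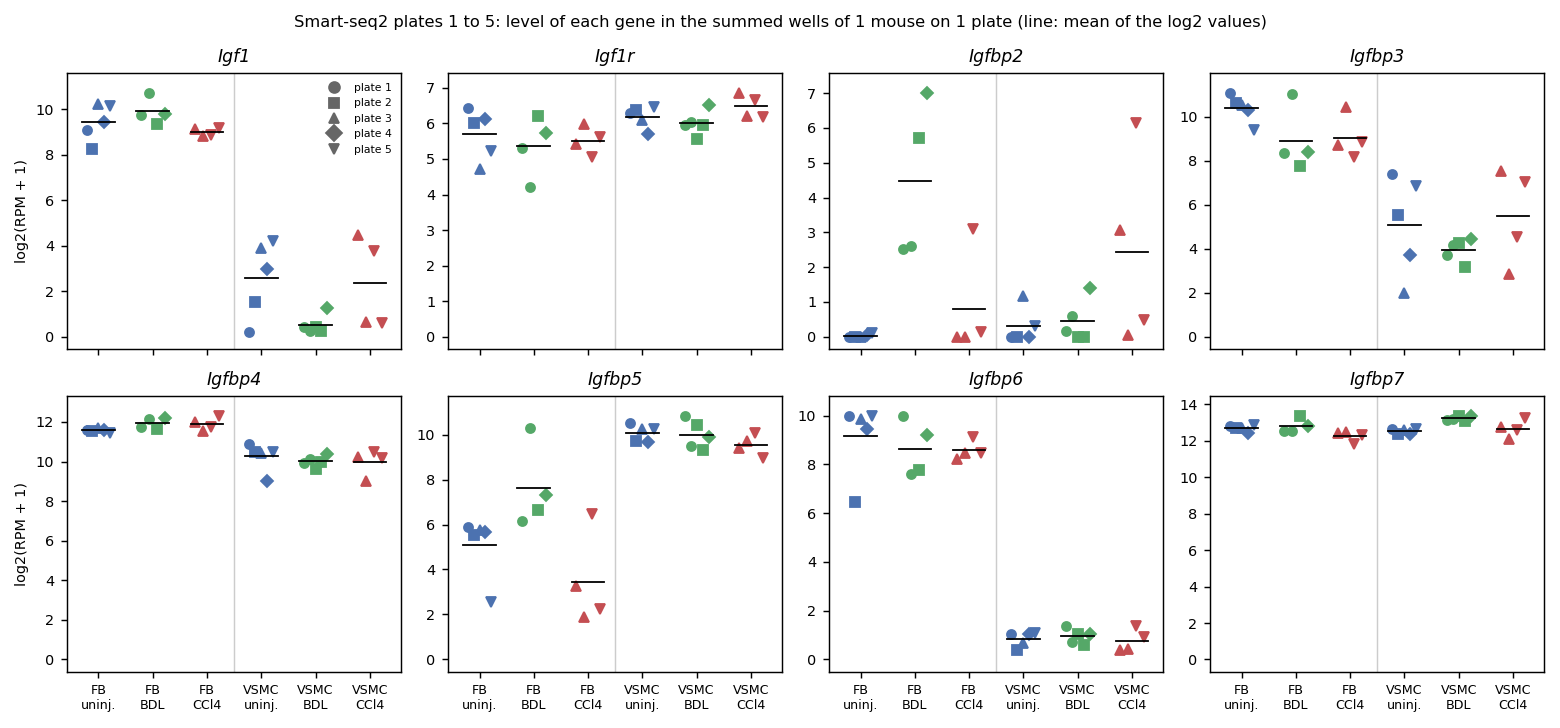
RPM on a log2(RPM + 1) axis of each gene in every portion with at least 10 wells, in FB-like and VSMC-like wells of uninjured, BDL and CCl4 portions of plates 1 to 5, 1 point per portion shaped by plate, with a line at the mean of the log2 values. Igfbp7 in VSMC-like wells and Igfbp2 and Igfbp5 in FB-like wells have all BDL points above all uninjured points of plates 1 to 5. None of them passed the test, and the share of all genes that separate in this way was not computed.

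In FB-like wells after BDL, none of the 8 members passed the test, beside 0.314% of 13378 genes. The lowest adjusted p belonged to Igfbp2, a binding protein of fetal and regenerating tissue, and Igfbp5 had the 4 BDL portions of at least 10 wells above all uninjured ones. The second BDL portion of plate 2, with 9 FB-like wells, was under that minimum and stood in no test, and its Igfbp2 was 0, its Igfbp5 2.45 RPM and its Igfbp3 130.5 RPM. Igfbp2 was 0, 0, 0, 0.0416 and 0.0752 RPM in the uninjured portions of plates 1 to 5 and 4.76, 5.10, 51.2 and 128 RPM in the BDL portions, with reads in 2.17% to 12.7% of BDL wells. The groups did not overlap, though most wells of each BDL portion had none, and the share of all genes separating in this way was not computed. The log2 difference was 10.58 (SE 2.14), with an adjusted p of 0.054 from edgeR's quasi-likelihood test and of 9.7e-05 from DESeq2. The fitted size depends on the prior count, since 3 uninjured portions were at 0. Wells led by Wif1, which had no class name and were left out, held Igfbp2 too, and with them counted as FB-like the difference was 1.77 with an adjusted p of 0.85. They numbered 75 in uninjured portions, 1 after BDL and 33 after CCl4.

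Igfbp5 measured 58.7, 45.7, 52.6, 49.2 and 4.81 RPM in uninjured and 70.6, 1251, 99.9 and 157 RPM in BDL portions. All 4 lay above the uninjured range, and above the 58.2 RPM of the uninjured portion of plate 6, by 3.21 on the log2 scale (SE 1.1, adjusted p 0.30). The high value of 1251 RPM came from the 12 FB-like wells of the second BDL portion of plate 1, and without that portion the difference was 1.38 (adjusted p 0.83). Igfbp3 was 2166, 1577, 1491, 1275 and 680 RPM in uninjured portions and 323, 2094, 217 and 331 RPM in BDL portions, 3 of the 4 below every uninjured value (log2 -0.97, SE 0.64, adjusted p 0.73). The remaining portion, with 2094 RPM, was the same one of 12 wells. Igf1 was 777 ± 383 RPM (SD, n = 5) in uninjured and 1021 ± 459 RPM (SD, n = 4) in BDL portions, with overlapping values (0.40, SE 0.36, adjusted p 0.84). Within plates, each BDL portion lay above the uninjured one, at 864 and 1691 against 548 RPM on plate 1, 649 against 304 RPM on plate 2 and 881 against 699 RPM on plate 4. With the plate as a block the difference was 0.93 (SE 0.31, adjusted p 0.40). Igfbp4, Igfbp6, Igfbp7 and Igf1r had adjusted p values of 0.64 to 0.94. The share of all genes with portions ordered as for Igfbp5, Igfbp3 or Igf1 here was not computed.

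By cluster, the C7 and Mmp3 wells gave 135 uninjured and 130 BDL wells and the Sfrp2 wells 43 and 79, while a cluster led by C1qtnf3 and Cyp26a1 held 71 BDL wells and no uninjured one. The C1qtnf3 wells had Igfbp2 at 274 RPM (35.5, 102.7, 0 and 843 RPM by portion), Igfbp5 at 463 RPM and Igfbp7 at 11702 RPM. The Sfrp2 wells carried the most Igf1 and Igfbp6 of the FB-like clusters, with Igf1 at 1738 RPM uninjured and 986 RPM after BDL and Igfbp6 at 1993 and 1233 RPM. In C7 wells Igfbp2 was 0.0328 RPM uninjured and 0.109 RPM after BDL, far below the C1qtnf3 wells. Igfbp3 in C7 wells was 2769, 1577, 2159, 1523 and 1262 RPM in the uninjured portions of plates 1 to 5, against 104 RPM in the BDL portion of plate 2 with 25 wells and 150.5 RPM in that of plate 4 with 88 wells. The BDL portions of plate 1, with 6 and 7 such wells, had 683 and 3378 RPM. In a fit of the C7 wells alone, chosen after seeing the data, these plate 1 portions fell under the minimum of 10 wells and were left out, with 2 BDL portions remaining, and the Igfbp3 log2 difference was -3.72 (SE 0.58, unadjusted p 2.7e-05, adjusted p 0.21), and 0 genes passed in that fit of edgeR, with 620 at an unadjusted p under 0.05.

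Among markers of other cell types in these wells, the cholangiocyte sum was higher after BDL through Spp1. The ranges of the leucocyte and hepatocyte sums overlapped between uninjured and BDL portions. The summed level of 5 cholangiocyte markers was 8.28 to 27.4 RPM in uninjured and 390 to 2398 RPM in BDL portions, with 0 to 2 of the 5 markers at 0 in a BDL portion. The secreted protein gene Spp1 alone gave 568 of 575, 2360 of 2398, 1956 of 2000 and 371 of 390 RPM in the BDL portions. The 5 leucocyte markers summed to 17.7 to 63.3 RPM in uninjured portions of plates 1 to 5 and 44.9 to 481 RPM after BDL. They were led by Csf1r, Lyz2 or Cd74, with 0 to 4 of 5 at 0. The hepatocyte markers, mostly Cyp2e1, summed to 175 to 371 RPM and 43.7 to 710 RPM. The uninjured portion of plate 6, outside this comparison, had leucocyte and hepatocyte sums of 13.2 and 1081 RPM. Their part in the values above was not tested. Of the axis list, 18 genes were tested and none passed. The lowest adjusted p was that of Grb10, an imprinted adaptor that inhibits insulin and IGF signalling, at 100.2 ± 37.3 RPM (SD, n = 5) in uninjured and 219 ± 53.5 RPM (SD, n = 4) in BDL portions (log2 1.13, SE 0.26, adjusted p 0.091).

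**Figure D4:**
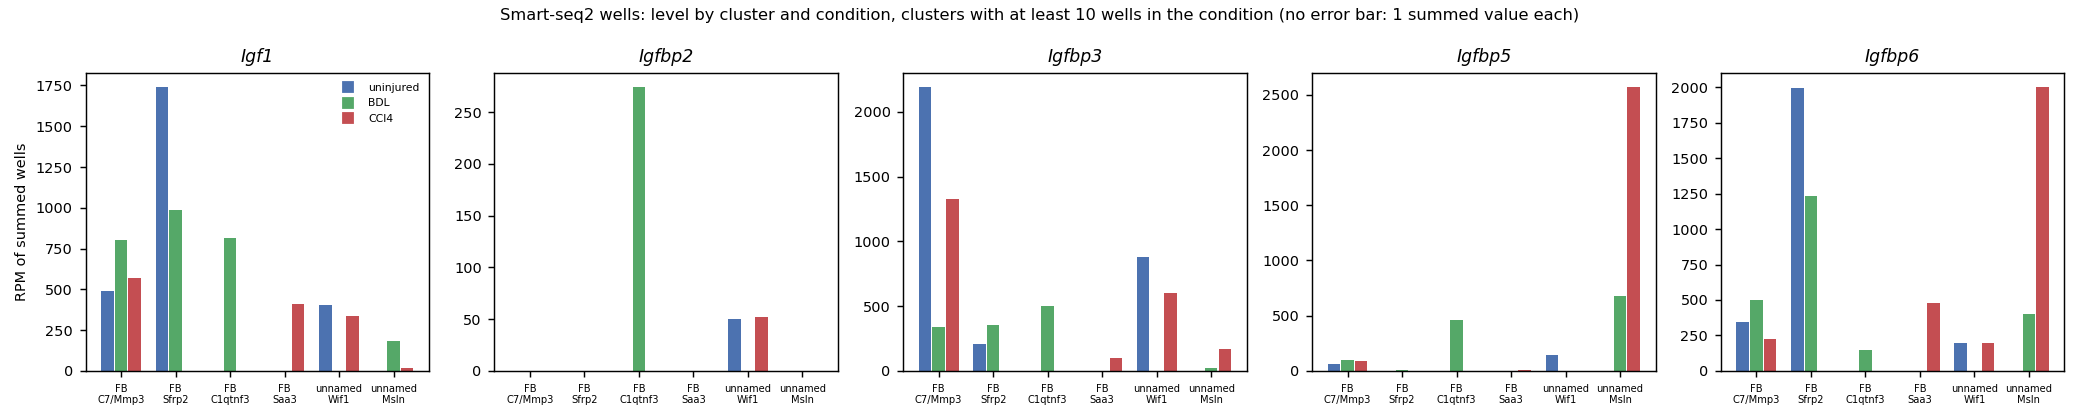
RPM of Igf1, Igfbp2, Igfbp3, Igfbp5 and Igfbp6 in the FB-like and the unnamed clusters of plate wells by condition, each bar the sum over the wells of that cluster and condition where there were at least 10, with no error bar. Igfbp2 stands highest in the C1qtnf3 wells after BDL at 274 RPM, and Igfbp3 in the C7 wells is 2188, 337 and 1328 RPM in uninjured, BDL and CCl4 wells.

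CCl4 for 6 weeks gave no call among the 8 members in FB-like wells either, beside 0.867% of 13378 genes. Igf1 was 564, 454, 464 and 578 RPM in CCl4 portions, a narrow range inside the uninjured one of 304 to 1194 RPM (log2 -0.59, adjusted p 0.67). Within plates, however, both CCl4 portions of plate 3 (564 and 454 RPM) lay below its uninjured portion of 1194 RPM, and both of plate 5 (464 and 578 RPM) below its 1139 RPM. With the plate as a block the difference was -1.16 (SE 0.32, adjusted p 0.38). Igfbp3 was 412, 1374, 282 and 462 RPM, 3 of 4 below every uninjured portion (-1.19, SE 0.64, adjusted p 0.60), and Igfbp6 294, 357, 559 and 358 RPM, inside the uninjured range of 86.5 to 1027 RPM (-0.94, adjusted p 0.67). How many of all genes were ordered as Igf1 within plates, or as Igfbp3 between portions, was not computed. Igfbp2 had reads in 2 of 4 portions, at 7.56 and 0.103 RPM, and Igfbp5 stood at 8.56, 2.67, 88.0 and 3.70 RPM. Most CCl4 wells, 143, were in a cluster led by Saa3 and Hp, which held no uninjured well and had Igfbp3 at 100 RPM and Igfbp7 at 3532 RPM, and 69 were in the C7 cluster, with 1328 and 6845 RPM. Leucocyte markers summed to 315 to 688 RPM in the CCl4 portions, nearly all from Cd74, and cholangiocyte markers to 98.0 to 918 RPM, mostly Spp1. Mesothelial markers, mostly Wt1, summed to 186 to 582 RPM in the 4 CCl4 portions, with 0 or 1 of 5 at 0, against 30.2 to 152 RPM in the 6 uninjured portions, with 2 to 4 of 5 at 0. The part of these markers in the values of the members was not tested. The axis list gave 0 of 18, and Socs2 was at a log2 difference of -1.22 (SE 0.40, adjusted p 0.23).

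The difference between the injuries was fitted as well, though BDL and CCl4 shared no plate and cannot be told apart from plate in the raw values. None of 8 members passed, beside 0.00747% of 13378 genes. Igfbp5 was higher after BDL than after CCl4 by 4.0 on the log2 scale (SE 1.22, adjusted p 0.38), Igfbp2 by 4.74 (SE 1.72, adjusted p 0.52) and Igf1 by 0.99 (SE 0.38, adjusted p 0.60). For Igf1 the 4 BDL portions, at 649 to 1691 RPM, lay above the 4 CCl4 portions, at 454 to 578 RPM. The share of all genes with such an order was not computed.

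In VSMC-like wells, Igfbp7 was higher in every BDL portion than in every uninjured portion, without passing the test. How many of all genes were ordered in this way was not computed. Igfbp7 measured 6321, 5209, 6207, 5245 and 6493 RPM in uninjured portions and 9100, 9306, 10683, 8549 and 10625 RPM after BDL. Their means were 5895 ± 618 and 9652 ± 955 RPM (SD, n = 5 each), with a log2 difference of 0.78 (SE 0.17, unadjusted p 0.000282, adjusted p 0.071). The level after BDL was higher in each large cluster, from 5436 to 11491 RPM in Tcap wells, from 4539 to 7630 RPM in Rergl wells and from 6171 to 8906 RPM in Higd1b wells. None of 8 members was called, beside 0.246% of 13034 genes. With a CCl4 portion left out, either the second of plate 3 or the second of plate 5, the adjusted p of Igfbp7 was 0.026 or 0.025, and DESeq2 gave 0.0023. Cholangiocyte markers in these wells summed to at most 5.77 RPM, and hepatocyte markers to 0 to 166 RPM after BDL and 0.921 to 122 RPM in uninjured wells.

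Igf1 in VSMC-like wells was 0.350, 0.187, 0.358, 0.190 and 1.37 RPM after BDL against 0.168 to 17.4 RPM in uninjured portions of plates 1 to 5, ranges that overlapped (log2 -3.94, SE 1.32, adjusted p 0.29). In the Actc1 and Npnt wells of this class Igf1 was at 51.9 RPM in uninjured, 0.260 RPM in BDL and 67.9 RPM in CCl4 wells, of which there were 40, 18 and 19. Igfbp5, the member called higher in this class than in FB-like wells of uninjured mice, was 1469, 829, 1208, 803 and 1228 RPM in uninjured portions. It was 1839, 722, 1374, 635 and 945 RPM in BDL and 680, 825, 1056 and 494 RPM in CCl4 portions. All 3 ranges overlapped, and the CCl4 difference was -0.50 (SE 0.30, adjusted p 1.00). For CCl4 against uninjured, 0 of 8 members and 0 of 13034 genes (0%) passed in edgeR, with 638 genes at an unadjusted p under 0.05, and DESeq2 called 54 genes. BDL against CCl4 gave 0 of 8 members beside 0.00767% of genes, with Igfbp7 at 0.56 (SE 0.18, adjusted p 0.52). Neither injury gave a call among the 16 axis genes tested in this class.

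Whether an injury moved a member differently in FB-like and VSMC-like wells was tested as a class-by-condition term with the portion in the fit. None of 8 members passed for BDL and none for CCl4, each beside 0.0343% of 14595 genes. For BDL the term was 3.68 (SE 1.33, adjusted p 0.82) for Igf1 and -0.71 (SE 0.26, adjusted p 0.82) for Igfbp7, and for CCl4 -0.60 (adjusted p 0.73) for Igfbp7. At an unadjusted p under 0.05 in edgeR stood 3 and 1 members for these BDL and CCl4 terms, 2, 1 and 4 in FB-like wells (BDL, CCl4, and BDL against CCl4) and 3, 1 and 4 in VSMC-like wells. The share of all genes under that p is not set beside these counts, so they give no result about the members as a set. DESeq2 called 0 and 0 members for the terms, 1, 0 and 1 in FB-like wells (Igfbp2 after BDL, and Igfbp5 between the injuries with an adjusted p of 0.040) and 2, 0 and 0 in VSMC-like wells (Igf1, with an adjusted p of 0.024, and Igfbp7). The numbers of all genes called by DESeq2, which called more than edgeR, are given under the dependence on processing. On simulated portions of FB-like wells with 13378 genes, the BDL test recovered 34% of 4-fold and 2% of 2-fold changes planted in randomly chosen genes. A 2-fold change of such a gene would thus mostly not have been called in that test. The recovery for the members themselves, and for the other tests, was not computed.

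Across the 31 sums of a portion and class, which share plates and mice, each member was set beside all 7569 genes of at least 20 RPM by Pearson's r of log2(RPM + 1), as a description. Igfbp6 was most like Clec3b (r = 0.984) and Ugt1a6a (0.981), Igf1 like Flrt2 (0.956) and Col3a1 (0.947), and Igfbp3 like Pltp (0.924) and Ly6e (0.913). Igfbp4 stood nearest Scpep1 (0.923) and Gas6 (0.919) and Igfbp5 nearest Lmna (0.917) and Plekhg3 (0.903). The likeness was weaker for Igf1r, with Neurl1b (0.761) and Rfk (0.749), for Igfbp7, with Ggt7 (0.613) and Gtpbp1 (0.593), and for Igfbp2, with Rgs16 (0.557) and Ier3ip1 (0.541). Among the members, Igf1 and Igfbp6 ran together at r = 0.942 and Igfbp3 and Igfbp5 apart at r = -0.682.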

How the data were processed

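The 10X reads were mapped by the authors to mm10 using Cell Ranger 2.1.0, and unnormalized UMI counts for each cell were deposited. Smart-seq2 reads were mapped to mm10 using STAR and counted with rpkmforgenes, and the unnormalized counts of all wells were deposited. Counts are whole numbers and were used as deposited.

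Kept from 10X were cells of at least 300 genes and at most 30% mitochondrial UMIs, and genes detected in 3 or more cells, with the genes reported here always kept. Wells more than 3 median absolute deviations from the median were left out. Cells and wells were clustered with Leiden (10 principal components of 2000 variable genes, 30 neighbours, resolution 0.8) without the genes reported here or the axis list, and clusters were named from fixed markers, with the scoring set after clusters had been looked at. Doublets were called at 0.8% per 1000 cells and kept, and results without them were computed. Zonation scores (mean z-score of portal minus central genes, per library) and collagen scores (geometric mean of 3 genes) were made here and cut by 2-means clustering.

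Plate counts were summed per portion and class with at least 10 wells and tested with edgeR 4.0.16 (quasi-likelihood, TMM, low counts filtered, Benjamini-Hochberg over all genes tested, threshold 0.05), with uninjured, BDL and CCl4 portions of plates 1 to 5 in 1 fit. DESeq2 1.42.0 was an alternative. The test was checked on simulated counts. Software was R 4.3.3 and Python 3.11.15 with leidenalg 0.10.2 on igraph 0.11.9, SciPy 1.17.1, pandas 2.3.3, NumPy 2.4.6 and scikit-learn 1.9.0. Portions of the same plate deviated from their group means with a median correlation of 0.04 (-0.07 to 0.17, 8 pairs) for FB-like wells. For the VSMC-like class it was 0.01 (-0.13 to 0.06, 9 pairs). These correlations run over many genes and few pairs, so they cannot show whether a single gene shares a plate effect.

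The genes named are the 8 members, the 20 genes of an axis list (Igf2, Igfals, Igfbp1, Igfbpl1, Igf2r, Insr, Irs1, Irs2, Shc1, Grb10, Grb14, Pappa, Pappa2, Htra1, Stc1, Stc2, Ghr, Stat5a, Stat5b and Socs2) and, for each member, the 2 genes most like it. Members and lists were chosen with earlier results of these data known. Alternatives covered normalization, the filter on low counts, the filter on wells, the minimum of 20 wells, clustering resolution, thinning, called doublets, the plate as a block and each portion left out. Human samples were not used here.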

Additional observations from a re-analysis of the deposited data

Results flagged for a closer look

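Of 48 groups of 4 to 10 portions, 6 held a portion far from the others by Dixon's test, where chance alone sets apart about 1 in 20 groups. Igf1 in VSMC-like wells was 1.37 RPM in the BDL portion of plate 4, above the other BDL portions. Igfbp2 was 7.56 RPM in the FB-like wells of the first CCl4 portion of plate 5 and 1.26 RPM in the VSMC-like wells of the uninjured portion of plate 3, both above the rest of their groups. Igfbp4 was 519 RPM in the VSMC-like wells of the uninjured portion of plate 4, below the others. In FB-like wells of uninjured mice, Igfbp5 was 4.81 RPM on plate 5 and Igfbp6 86.5 RPM on plate 2, each the lowest of its group.

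Cells and wells without a class name stood outside the comparisons. The Wif1 wells held Igfbp2 at 50.4 RPM in 75 uninjured wells (6.76, 12, 0 and 136 RPM in the portions of plates 1, 2, 3 and 5) and at 52.5 RPM in 33 CCl4 wells (0, 0 and 123.5 RPM by portion). In the 171 cells of the Saa3 and Lcn2 cluster at 72 h, Igf1 was 178 CPM, Igfbp2 38.5 CPM and Igfbp4 1717 CPM, above the HSC-like cells of that library. The 5 hepatocyte markers summed to 158.1 CPM in the same cells, of which Cyp2e1 alone gave 148.9 CPM. In HSC-like cells of that library the 5 summed to 37.85 CPM, led by Apoa1 at 12.67 CPM. The unnamed cells held the mesothelial marker Wt1 at 56.0 CPM. The other 4 mesothelial markers were at 0 after genes detected in fewer than 3 cells of the library had been set to 0. The part of hepatocyte or mesothelial RNA was not tested.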

How the results depend on the processing

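Counts of called genes depended on the fit, and so did the fitted differences of members. Igfbp2 for BDL in FB-like wells, for example, ranged from 1.77 to 11.49 on the log2 scale. With the plate as a replicate block, the counts were 8 (FB-like BDL, 42 in the reported fit), 12 (FB-like CCl4, 116), 0 (FB-like BDL against CCl4, 1), 1 (VSMC-like BDL, 32) and 0 (VSMC-like BDL against CCl4, 1). In that fit Igfbp2 after BDL was 11.49 with an adjusted p of 0.17, Igfbp7 in VSMC-like wells 0.87 with an adjusted p of 0.45, and Igfbp2 in VSMC-like wells between BDL and CCl4 3.36, the opposite sign. With no replicate block the CCl4 difference between classes gave 15 (5 in the reported fit). DESeq2 gave 311, 457, 192, 258, 54 and 99 for the 6 comparisons of conditions in the order FB-like then VSMC-like, 3410 for FB-like against VSMC-like (1911), and 208 and 419 for the BDL and CCl4 differences between classes. Its size factors in edgeR gave 4 for FB-like BDL against CCl4. Without the filter on low counts, that comparison gave 11 and the BDL difference 8. A minimum of 20 wells gave 9 for FB-like BDL, 0 for FB-like BDL against CCl4 and 1 for the BDL difference. A well filter on the log10 scale gave 12, 0 and 0 for the FB-like comparisons and 0 and 0 for the differences. A resolution of 0.3, which left the C7 wells without a class name, gave 4, 233 and 8, 441 for FB-like against VSMC-like, and 0 and 33. Plate 6 added gave 72 for FB-like BDL and 9 for the BDL difference. Of the alternatives chosen after seeing the data, joining injured portions of the same name gave 15, 23 and 0 in FB-like and 2 and 0 in VSMC-like wells (BDL, and BDL against CCl4), counting Wif1 wells gave 5 for FB-like BDL against CCl4 and 3 for the CCl4 difference, and C7 wells alone gave 0 for all 3 FB-like comparisons and 0 for both differences. Leaving out 1 portion gave 19 to 43, 40 to 123 and 0 to 5 in FB-like wells, 6 to 38, 0 to 0 and 1 to 1 in VSMC-like wells, 1340 to 1806 between the classes, and 0 to 6 and 1 to 9 for the differences. The causes were not tested.

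Over 71 member comparisons and 1595 alternatives, 1562 were labelled the same, 13 newly passed the threshold, 3 no longer passed and 17 changed sign. A change of sign was counted only where either fit passed the threshold or the reported difference exceeded its SE. Since few members passed in the reported fits, most alternatives were labelled the same unless they newly passed or made a counted change of sign. The label therefore does not measure how far a fitted difference moved. Smaller differences labelled the same could therefore also change sign. Igfbp5 for CCl4 in FB-like wells, for example, ranged from -3.045 to 2.390 over the fits. In FB-like BDL wells the counted changes of sign were Igf1 at -0.15 with 20 wells and -1.81 at resolution 0.3, Igfbp3 at 0.67 and Igfbp4 at -0.24 at resolution 0.3, and Igfbp5 at -0.42 and Igfbp6 at 0.74 in C7 wells alone. For CCl4 they were Igf1 at 0.27 in C7 wells, Igfbp2 at -1.21 with Wif1 wells and Igfbp7 at 0.13 with the log10 filter. At resolution 0.3 the C7 wells stood outside the FB-like class, and fewer portions reached the minimum of wells. Igfbp7 was then -0.35 between BDL and CCl4 and -0.10 between FB-like and VSMC-like wells, the BDL difference of Igfbp4 was -0.20 and the CCl4 difference of Igfbp5 2.59. The BDL difference was -0.58 for Igfbp2 with Wif1 wells, and -0.49 for Igfbp5 and 0.32 for Igfbp6 in C7 wells. Igfbp2 in FB-like BDL wells passed with DESeq2 (adjusted p 9.7e-05), without the filter (0.030), with plate 6 (0.024) and without either CCl4 portion of plate 3 (0.041 and 0.044) or the first of plate 5 (0.011), over a range up to 0.85. Igf1 and Igfbp7 in VSMC-like BDL wells passed with DESeq2 (adjusted p 0.024 and 0.0023), as did Igfbp5 between BDL and CCl4 in FB-like wells (0.040). Between the classes Igfbp3 and Igfbp4 no longer passed at resolution 0.3 (adjusted p 0.72 and 0.16), and Igfbp7 passed with DESeq2 (0.013) and in C7 wells (0.043).

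In 10X, the members past 2-fold between zones were 2 in each library, 1 in uninjured cells without called doublets, and 1 in each library after thinning. Between collagen classes at 72 h there were 2, and 1 after thinning, and at 6 weeks 1, and 2 without called doublets. The share of all genes past 2-fold between zones or collagen classes was not computed, so these counts give no result about the members as a set. One library per condition, few wells per portion and sampling depth limit all of these values.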

Other observations

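The plate wells led by Msln, Krt18, Upk1b and Upk3b, markers of mesothelium and other epithelium, had no class name and stood in no comparison. In their 18 BDL and 20 CCl4 wells, Igfbp5 measured 677 and 2568 RPM and Igfbp6 404 and 1999 RPM. In the Actc1 and Npnt wells of the VSMC-like class, Igfbp3 measured 428 RPM in uninjured, 211 RPM in BDL and 507 RPM in CCl4 wells, Igfbp2 0, 0.130 and 192 RPM, and Igfbp7 9013, 15237 and 8727 RPM. Only 10.5% of the 19 CCl4 wells had an Igfbp2 read. Over the whole VSMC-like class, Igfbp2 was 69.45 RPM in the first CCl4 portion of plate 5 and 0.0254 to 7.305 RPM in the other CCl4 portions.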
